A study of Mus musculus with 72 samples.

Results

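Junctions on the bait side of an induced DNA double-strand break (DSB) were described across 60 LAM-HTGTS libraries of mouse neural progenitor cells. LAM-HTGTS, a sequencing method for translocations, cuts 1 known site with Cas9, the bait DSB, and sequences from a primer beside that site into whatever DNA the cut end was joined to, the prey. A junction was taken as a member if its prey lay on the bait chromosome, on the side of the cut that carries the primer, more than 10 bp and at most 1 Mb from the cut. Members were thus chosen by the measured position of the prey, which is not given as a finding. Of 591366 junctions, 99047 (16.75%) met this rule. The position r is given in bp from the cut, and negative values lie on the bait side. Members were kept apart by the strand of the prey. In 79442 members (80.21%) the prey ran opposite to the bait, so that the joint turned the sequence back on itself as an inverted repeat. In the other 19605 the prey ran the same way as the bait. In 88.9% or more of them per library the prey began before the bait ended, so that by its coordinates the joint doubled the stretch between both points as a direct repeat. This repeat was inferred from the coordinates and was not checked in the reads.

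The prey of these joints came from the side of the cut that also holds the primer. Such sequence can come from the sister chromatid, the homologous chromosome or the same end after folding back. Broken ends are joined mainly by classical non-homologous end joining, whose ligase needs XRCC4. Without it, ends are joined by alternative pathways, of which the best known uses DNA polymerase theta to pair short shared sequences, called microhomology, and to fill in from them. Polymerase theta is also known for short templated insertions copied from DNA near the break. ART558 inhibits its polymerase domain, and aphidicolin (Aph) slows the replicative DNA polymerases, which causes replication stress.

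The guides set the origin of all distances. Those of the chr6, chr12 and chr14 baits are shown 5′ to 3′ with the PAM in capitals, as located in GRCm38/mm10, and the coordinates are those of the guide without its PAM. Cas9 cuts 3 bases from the PAM.
chr6 guide, minus strand, chr6:70950106-70950125: gagggttggaaatgctcgtaTGG
chr12 guide, plus strand, chr12:12994038-12994057: attccgccaaccctcgagatAGG
chr14 guide, plus strand, chr14:83268830-83268849: ggcttagttatagtaggggcTGG

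Each read runs along the stretch from the nested primer toward the cut, up to the point where its bait ends. This stretch holds the bait bases printed beside the copied inserts below. It is shown for the same baits as the read runs, with the bases that the guide covers in capitals.
chr6 bait, minus strand, chr6:70950109-70950206: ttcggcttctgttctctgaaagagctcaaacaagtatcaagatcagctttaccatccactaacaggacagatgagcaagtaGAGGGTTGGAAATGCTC
chr12 bait, plus strand, chr12:12993923-12994054: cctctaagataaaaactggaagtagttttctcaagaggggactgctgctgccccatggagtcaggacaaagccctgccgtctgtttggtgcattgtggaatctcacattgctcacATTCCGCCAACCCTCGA
chr14 bait, plus strand, chr14:83268683-83268846: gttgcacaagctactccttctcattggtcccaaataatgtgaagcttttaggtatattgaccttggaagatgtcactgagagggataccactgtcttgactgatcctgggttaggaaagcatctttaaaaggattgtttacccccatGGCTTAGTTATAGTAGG
No cut lay in a protein-coding gene of the annotation, and other gene types were not examined. Within the window, Foxi3 was the nearest protein-coding gene to the chr6 cut at 6423 bp, Mycn to the chr12 cut at 52140 bp and BC030500 to the chr8 cut. The chr14 window held no protein-coding gene.

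Of the libraries, 45 came from Nxp010, a line of neural progenitor cells made from ES cells with the genotype NestinCre+Xrcc4-/-p53-/-, here called Xrcc4/p53-deficient. All of its groups, DMSO controls included, lack both genes, and its replicates all came from this 1 line. The study's reporting summary calls them technical repeats, while a legend speaks of independent biological replicates. The other 15 came from wild-type primary neural stem and progenitor cells of embryonic C57BL/6J mouse brains and were biological repeats. Cells had DMSO, Aph (0.5 uM for 72 h, then 0.25 uM for 24 h), ART558 (5 uM for 72 h, then 2.5 uM for 24 h) or both, and wild-type cells only Aph or Aph + ART558. Libraries held 133 to 36999 junctions (median 7737) and 28 to 6075 members (median 1417.5), from 11 sequencing runs. The wild-type libraries came from 1 run that held nothing else, so that genotype, cell source and run cannot be told apart.

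A few libraries stood apart or were thin. ART558 chr8 replicate 3 held 133 junctions and 47 members, of which 27.7% were inverted, against 86.9% and 89.5% in its group. In ART558 chr6 replicate 2, members made up 8.70% of the library, against 18.0% and 19.9%. The table of replicate 1 of that group ends within a line, so that its later junctions may be missing. Replicate 2 of DMSO chr14 had 1139 junctions and 79 members (6.94%, against 12.7% to 13.2% in the other 3). Wild-type chr6 libraries held 28 to 84 members each, at few positions, since only 16.1% to 62.5% of them differed in position or strand. Shares are given as percent of a library's junctions, and a percentage within the members was used only from a library with at least 20 junctions in its denominator.

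In Xrcc4/p53-deficient cells with DMSO, members made up 14.5% and 16.03% of the theta-collection libraries with the chr6 bait. With the chr8 bait they made up 12.8%, 13.2% and 13.6%, with the chr12 bait 11.8% and 12.6%, and with the chr14 bait 13.2%, 6.94%, 12.7% and 13.1%. The 7 further chr6 libraries of the promoter/enhancer experiment lay between 16.2% and 21.8% (median 17.6%). After Aph the share was 16.3% for chr6, 23.1%, 23.0% and 21.1% for chr8, 17.3% and 17.3% for chr12, and 19.3%, 21.0% and 21.3% for chr14. On each bait the Aph libraries lay above those of DMSO from the same experiment. The mean over baits was 19.1% with Aph and 13.0% with DMSO, a difference of 6.08 percentage points (9 against 11 libraries, two-sided exact permutation test within baits, p = 0.000159, the smallest it can give, Benjamini-Hochberg adjusted p = 0.00165). The rise was one of inverted junctions, which went from 10.0% to 15.8% of the library (difference 5.77, exact p = 0.000159), while same-strand members took 3.02% and 3.33% (difference 0.310, exact p = 0.0414, adjusted p = 0.0664).

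These shares moved beside other changes in the same libraries. Junctions past the break on the bait chromosome fell from means of the compared groups of 55.3% to 74.4% with DMSO to 28.0% to 51.1% with Aph. Junctions on other chromosomes took group means of 6.81% to 21.5% with DMSO and 17.9% to 40.3% with Aph. Counted per 100 junctions on other chromosomes, members were therefore fewer with Aph, by 39.9 on the mean over baits (exact p = 0.00175).

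ART558 alone gave shares of 18.0%, 8.70% and 19.9% for chr6, 17.4%, 17.7% and 35.3% for chr8, and 17.2%, 15.6% and 15.1% for chr12. The means over baits were 18.3% and, with DMSO, 13.6%, a difference of 4.78 that did not pass the test (9 against 7 libraries, exact p = 0.064, adjusted p = 0.0964). Without ART558 chr6 replicate 2 the difference was 5.91 (exact p = 0.00167), and without replicate 1, whose table is cut short, 4.36 (exact p = 0.145). Without ART558 chr8 replicate 3, the library of 133 junctions, it was 2.80 (exact p = 0.088). With members beyond 200 bp only it was 4.52 (exact p = 0.029), and as a percent of junctions within 1 Mb of the cut 17.4 (exact p = 0.001). On chr8 and chr12 every ART558 library lay above every DMSO library, and on chr6 they overlapped. With Aph + ART558 the share was 20.9%, 23.3% and 15.3% for chr6, 28.1%, 24.0% and 22.6% for chr8, and 18.7%, 20.8% and 26.8% for chr12. This was 3.64 points above Aph alone (22.3% against 18.6%, 9 against 6 libraries, exact p = 0.04, adjusted p = 0.0658), which did not pass after adjustment. The difference was 1.55 (exact p = 0.483) when each position was counted once, and 9 of the 15 fits without 1 library also missed the threshold, with differences between 2.86 and 4.39 over the 15. Inverted members alone rose from 15.5% to 19.5% of the library (difference 3.93, exact p = 0.0075, adjusted p = 0.0156), or by 2.31 with each position counted once (exact p = 0.235). Per 100 junctions on other chromosomes the members were fewer in both comparisons, by 60.3 for ART558 against DMSO (exact p = 0.001) and by 26.2 for Aph + ART558 against Aph (exact p = 0.035), and other chromosomes took 21.1% to 65.5% of junctions in single libraries with ART558 and 35.7% to 67.7% with both drugs.

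**Figure D1:**
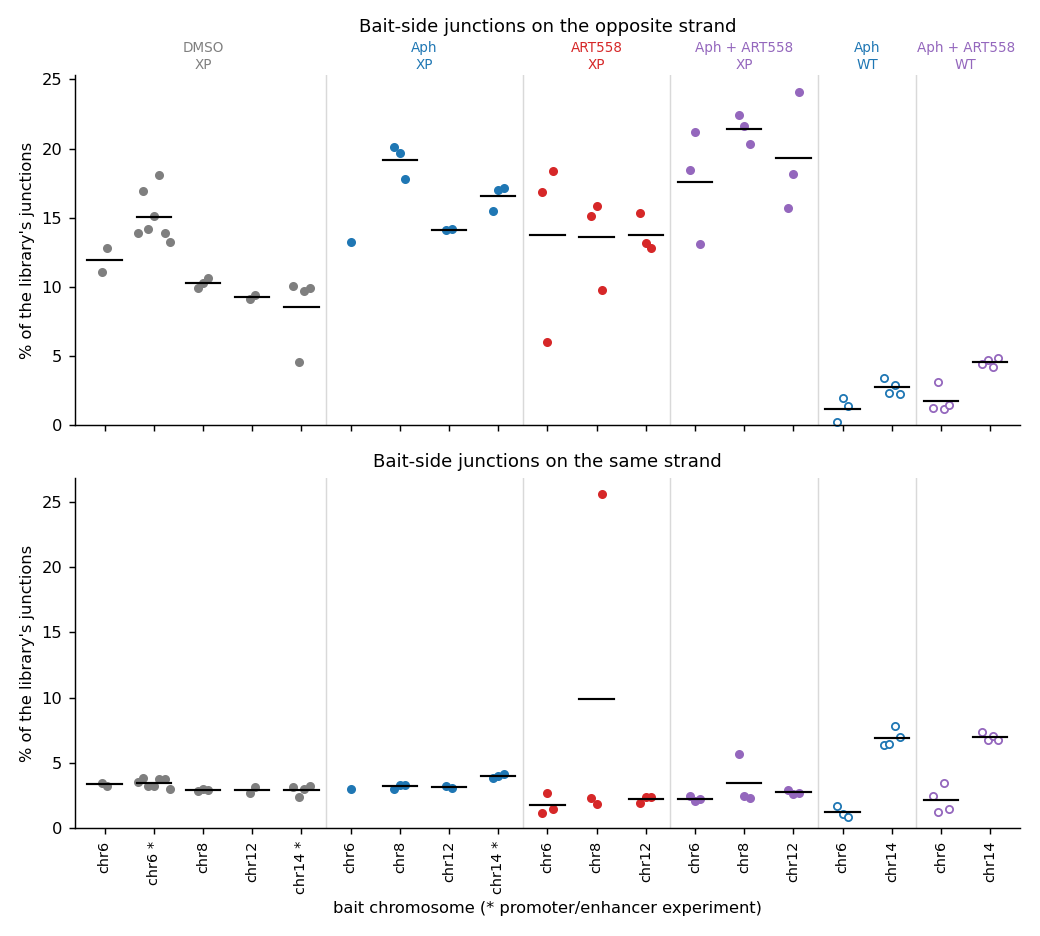
Bait-side junctions as percent of all junctions of a library, for prey opposite to the bait (upper panel) and in the same direction as the bait (lower panel), by drug and bait chromosome. Each point is 1 library, filled for Xrcc4/p53-deficient (XP) and open for wild-type (WT) cells, bars are group means and an asterisk marks the promoter/enhancer experiment. Opposite-strand points lie higher with Aph than with DMSO of the same experiment on each bait, and the opposite-strand group means are lowest in wild-type cells.

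Inverted joints were the larger class in every Xrcc4/p53-deficient library but 1. With DMSO they made up 76.2% and 79.9% of the members for chr6, 77.5%, 77.6% and 78.4% for chr8, 77.4% and 74.9% for chr12, and 76.4%, 65.8%, 76.3% and 75.6% for chr14. With Aph they made up 81.5% for chr6, 87.2%, 85.6% and 84.2% for chr8, 81.5% and 82.0% for chr12, and 80.3%, 80.9% and 80.7% for chr14. The groups did not overlap on any bait within 1 experiment, and the difference was 5.998 points (82.4% against 76.4%, exact p = 0.000159, adjusted p = 0.00165). The 7 chr6 libraries with DMSO of the promoter/enhancer experiment lay between 78.8% and 82.9%, on both sides of the single Aph library of chr6. With ART558 the values were 93.6%, 69.4% and 92.5% for chr6, 86.9%, 89.5% and 27.7% for chr8, and 88.8%, 84.6% and 84.3% for chr12, 2.37 points above DMSO (exact p = 0.842). Without the ART558 chr8 library of 133 junctions the difference was 9.10 (exact p = 0.02). Without replicate 1 or 2 of that group it was -0.777 and -1.21. Aph + ART558 gave 79.8% to 91.0% over its 9 libraries, 4.34 points above Aph (exact p = 0.0475, adjusted p = 0.0742), and 13 of 15 fits without 1 library missed the threshold.

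The distances had a shape that differed between the strands. Prey on the opposite strand began in small numbers close to the cut, with 1924 junctions between 11 and 50 bp over all libraries, then nearly ceased up to the biotinylated primer, which lies between r -229 and r -134 depending on the bait. Between 50 bp and that primer, 259 opposite-strand junctions were found against 1292 on the same strand. From there the opposite strand made a broad hill over bins that widened outward, so that its height does not give a density per bp. With DMSO the 500 to 1000 bp and 1000 to 2000 bp bins held 19.3% and 23.7% of opposite-strand members for chr8, and the 2000 to 5000 bp bin held 20.3%. With Aph the same bins held 10.9%, 16.3% and 27.5%, so the hill lay farther out. The rule set no visible edge at 1 Mb, where 16 members lay within the last 10 kb inside it and 7 junctions within the next 10 kb. At the inner limit, 819 opposite-strand and 66 same-strand members lay at r -15 to -11, and 1187 and 35 junctions at r -10 to -6 stayed outside.

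The median distance of inverted joints from the cut was longer in every Aph library than in any DMSO library. With DMSO it was 1051 and 918 bp for chr6, 1112, 1019.5 and 1060 bp for chr8, 1008 and 1149 bp for chr12, and 755, 578.5, 881 and 764 bp for chr14. With Aph it was 2173 bp for chr6, 2337, 2636.5 and 2644 bp for chr8, 2267 and 2054 bp for chr12, and 2145, 2014 and 2128 bp for chr14. ART558 alone gave 1164 to 1568.5 bp over 8 libraries and Aph + ART558 1981.5 to 2576 bp over 9. The share of inverted joints between 10 kb and 1 Mb was tested. It was 5.26% and 5.10% for chr6, 3.77%, 4.75% and 5.06% for chr8, 4.38% and 6.26% for chr12, and 4.29% to 5.77% for chr14 with DMSO. With Aph it was 20.7% for chr6, 20.4%, 20.8% and 20.4% for chr8, 12.8% and 12.1% for chr12, and 17.4%, 19.5% and 22.9% for chr14. The means over baits were 18.4% and 4.97% (difference 13.4, exact p = 0.000159, adjusted p = 0.00165), with no overlap on any bait.

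Adding ART558 to Aph lowered this distant share. It was 14.2%, 12.1% and 11.8% for chr6, 15.5%, 14.5% and 13.0% for chr8, and 9.22%, 7.74% and 7.72% for chr12, each below every Aph library of its bait. The mean fell by 6.13 points, from 17.9% to 11.8% (9 against 6 libraries, exact p = 0.0025, the smallest it can give, adjusted p = 0.00648). ART558 against DMSO did not pass (4.42% and 5.01%, exact p = 0.288). Same-strand members gave 9.90% beyond 10 kb with DMSO, 21.6% with Aph (difference 11.7, exact p = 0.000159) and, on the 3 baits that share both groups, 22.7% with Aph and 12.1% with Aph + ART558 (difference -10.6, exact p = 0.0025).

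**Figure D2:**
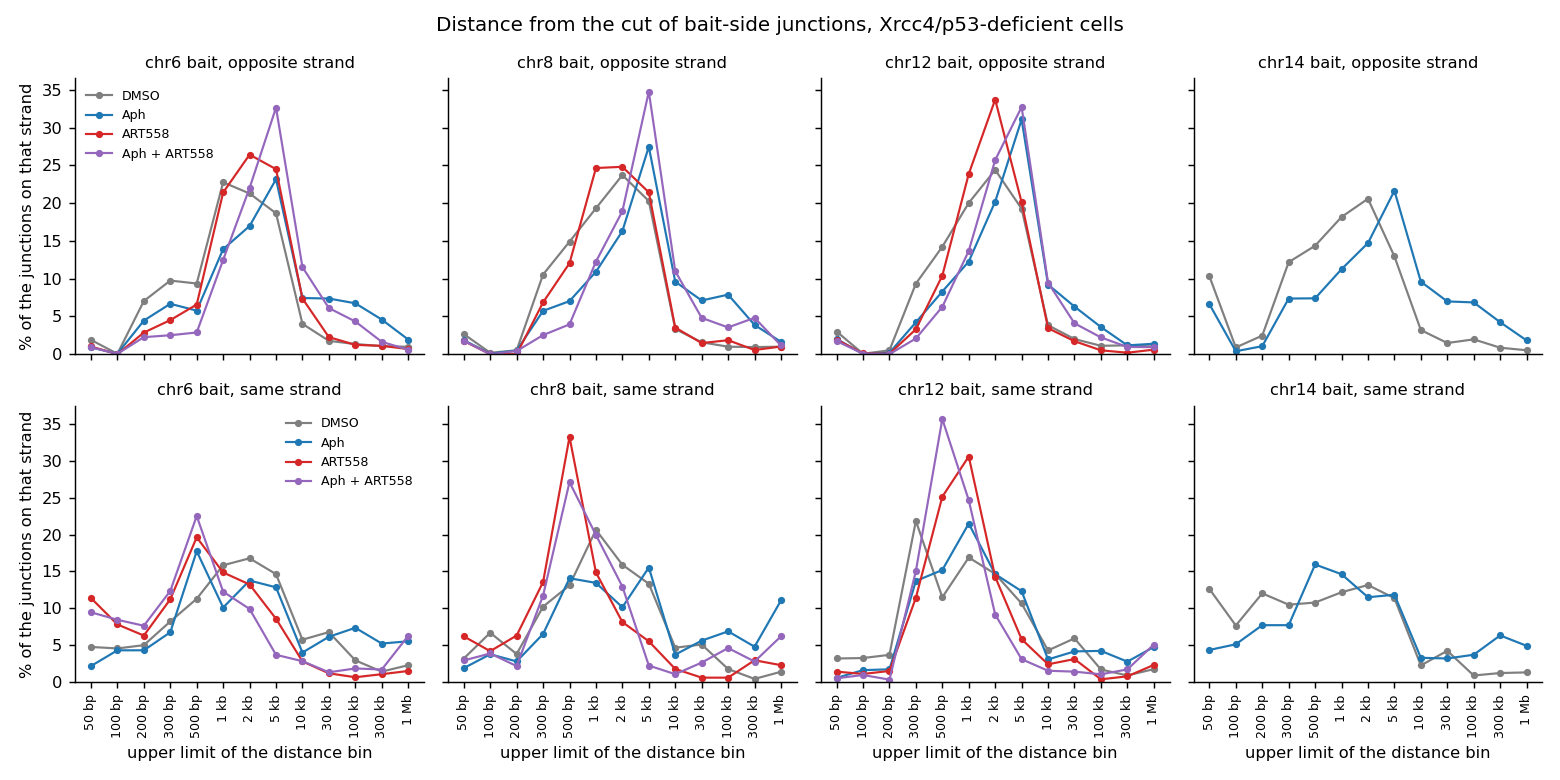
Distance of bait-side junctions from the cut (x axis, bins of unequal width, each named by its upper limit) against the mean percent of the members of that strand in each bin (y axis), for Xrcc4/p53-deficient (XP) cells, with 1 panel per bait and strand and 1 line per drug. On the opposite strand the hill of the lines with Aph lies farther from the cut than with DMSO or ART558, and the same strand peaks at 300 to 500 bp in the lines with ART558 but for ART558 alone on chr12 (500 to 1000 bp), and also with Aph alone on chr6 and chr14.

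The joints themselves separated the strands further. Overlap of bait and prey in the read gives the microhomology of a joint, 0 bp is a direct joint, and a gap is an insertion. Among joints of 0 to 10 bp, direct joints on the same strand made up 10.9% and 11.8% with DMSO for chr6, 8.91%, 10.6% and 9.61% for chr8, and 18.9% and 15.2% for chr12. With ART558 they made up 38.3%, 57.3% and 40.3% for chr6, 23.8%, 28.0% and 60% for chr8, and 38.0%, 47.9% and 40.4% for chr12. Every ART558 library lay above every DMSO library of its bait. The means were 41.6% and 12.7%, a difference of 28.8 points (9 against 7 libraries, exact p = 0.001, the smallest it can give, adjusted p = 0.00481). Aph gave 16.5% for chr6, 11.1%, 13.5% and 16.3% for chr8, and 22.5% and 24.0% for chr12. Aph + ART558 gave 34.8%, 37.7% and 42.4% for chr6, 31.7%, 42.3% and 28.5% for chr8, and 45.2%, 37.2% and 36.1% for chr12, again with no overlap (37.3% against 17.8%, difference 19.5, exact p = 0.0025, adjusted p = 0.00648). Joints with 2 to 4 bp of microhomology moved the other way on this strand, from 60.5% to 26.6% with ART558 (exact p = 0.001) and from 53.6% with Aph to 29.5% with both (exact p = 0.0025).

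On the opposite strand the joints moved less. Direct joints were 11.7% and 11.8% with DMSO and 12.8%, 16.6% and 12.2% with ART558 for chr6, 8.45%, 9.04% and 9.18% against 10.5% and 7.43% for chr8, and 11.4% and 9.74% against 10.8%, 8.90% and 11.3% for chr12. The difference was 0.661 points (8 against 7 libraries, exact p = 0.45, adjusted p = 0.541). Adding ART558 to Aph raised the share from 7.42% to 11.8% (difference 4.38, exact p = 0.0125, adjusted p = 0.0230). Microhomology of 2 to 4 bp fell by 6.17 points with ART558 (64.2% to 58.0%, exact p = 0.002) and by 11.2 points when it was added to Aph (67.8% to 56.7%, exact p = 0.0025). Longer microhomology of 5 to 10 bp rose, by 4.60 points with ART558 (8.44% to 13.0%, exact p = 0.002) and by 2.31 when added to Aph (10.8% to 13.1%, exact p = 0.005). Over both strands, direct joints went from 10.9% to 21.0% with ART558 (difference 10.1, exact p = 0.001), or by 5.08 points without ART558 chr8 replicate 3 (exact p = 0.002). Added to Aph, ART558 raised them from 9.31% to 16.2% (difference 6.86, exact p = 0.0025, adjusted p = 0.00648). Whether the effect of ART558 differed between the strands was not tested.

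Direct joints over both strands moved little with Aph alone. They went from 10.8% with DMSO to 9.46% (difference -1.30, exact p = 0.0117, adjusted p = 0.0222). This call was lost with insertions in the denominator (-0.0380, exact p = 0.879), with members beyond 200 bp only (-1.08, exact p = 0.144) and with the 7 chr6 libraries of the promoter/enhancer experiment added (-0.988, exact p = 0.0504). The strands moved in opposite directions, up from 12.2% to 17.8% on the same strand (exact p = 0.000278, adjusted p = 0.00248) and down from 10.1% to 7.55% on the opposite strand (exact p = 0.00508, adjusted p = 0.0111).

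The bases that bait and prey shared lay at varied distances from the cut. For chr6 in Xrcc4/p53-deficient cells, GC was the commonest overlap on the same strand (253 of 4905 overlaps of 2 to 10 bp, 5.16%), and in 80.2% of these the bait ended at r -3. TG was the commonest on the opposite strand (955 of 18184, 5.25%), most often at r -4. For chr8 the commonest was AA on the same strand (95 of 1306, 7.27%, most often at r -1) and CT on the opposite (420 of 7341, 5.72%, most often at r -7). For chr12 it was TC on the same strand (88 of 1606, 5.48%, most often at r -2) and CA on the opposite (546 of 9478, 5.76%, at r -8 in 28.6% of them). For chr14 it was TA on the same strand (69 of 1008, 6.85%, most often at r -2) and AG on the opposite (310 of 4006, 7.74%, at r -10 in 34.2%). In wild-type cells with the chr14 bait, the commonest on the same strand was TG (43 of 735, 5.85%), most often at r -92.

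**Figure D3:**
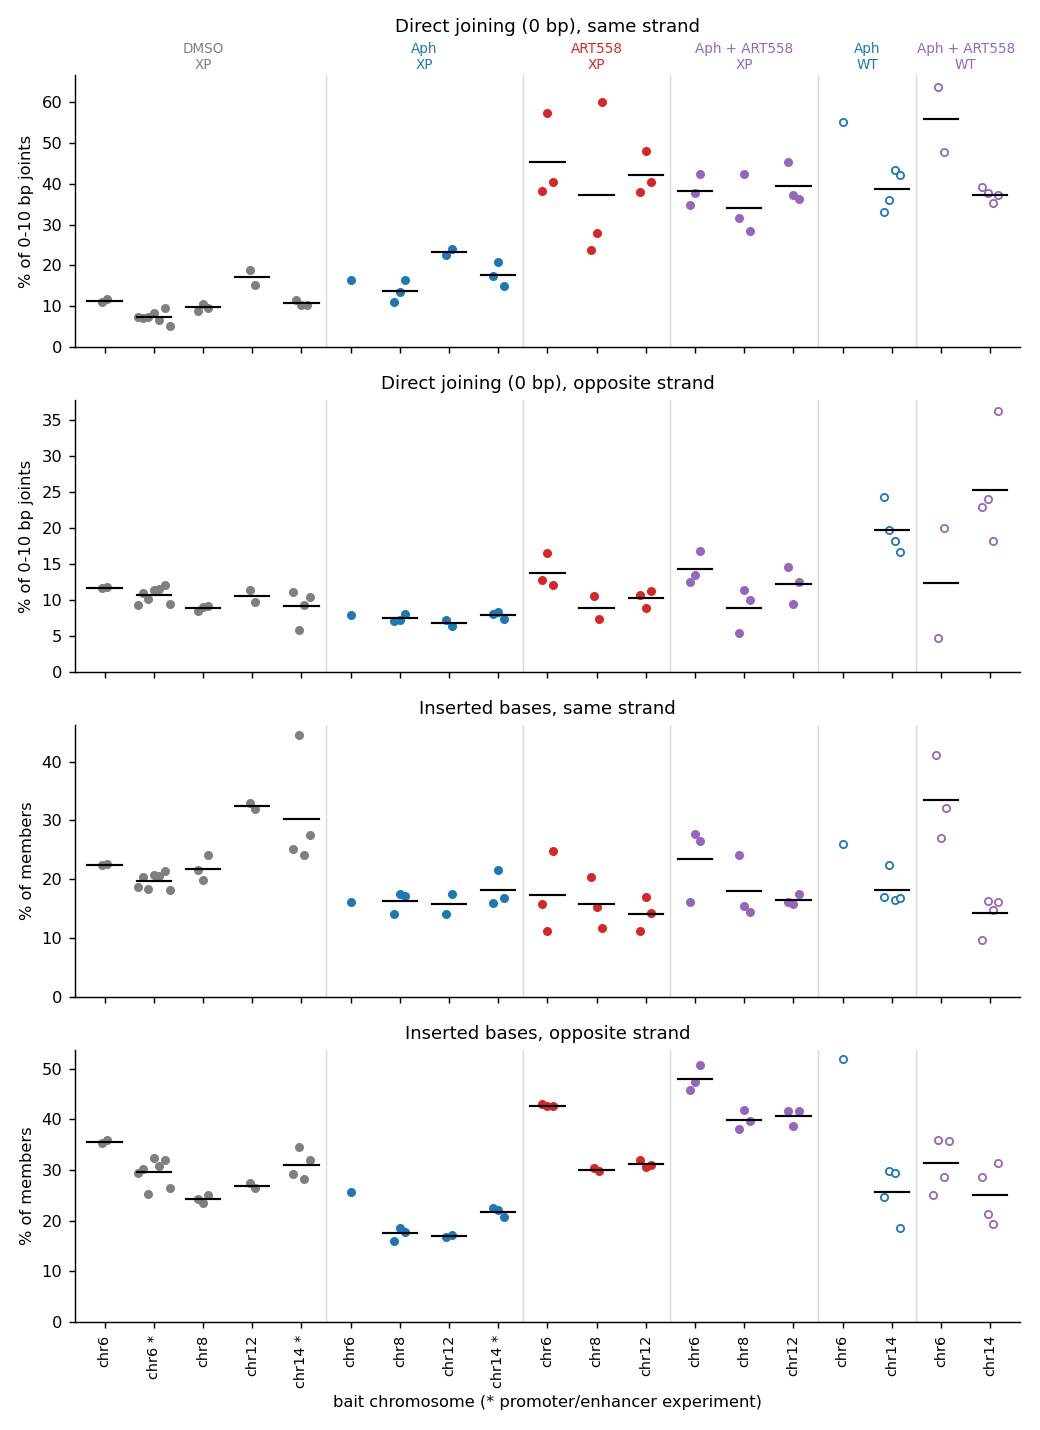
Direct joints as percent of joints with 0 to 10 bp of overlap (upper panels) and members with inserted bases as percent of members (lower panels), for same-strand and opposite-strand prey. Each point is 1 library with at least 20 such junctions, filled for Xrcc4/p53-deficient (XP) and open for wild-type (WT) cells, bars are group means and an asterisk marks the promoter/enhancer experiment. Direct joints on the same strand are high with ART558 and in wild-type cells, and inserted bases on the opposite strand are higher with Aph + ART558 than with Aph on each bait of Xrcc4/p53-deficient cells.

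Insertions were frequent in inverted joints and depended on both drugs. On the opposite strand they were found in 35.3% and 35.9% of members with DMSO for chr6, 24.3%, 23.5% and 25% for chr8, 27.4% and 26.5% for chr12, and 29.2%, 34.6%, 28.3% and 31.9% for chr14. With Aph they were found in 25.6% for chr6, 16.1%, 18.6% and 17.8% for chr8, 16.8% and 17.2% for chr12, and 22.4%, 22.2% and 20.7% for chr14. All Aph libraries lay below all DMSO libraries of their bait and experiment, while the 7 further chr6 libraries with DMSO (25.3% to 32.4%) reached down to the Aph library of chr6. The means over baits differed by -8.98 points (20.5% against 29.4%, exact p = 0.000159, adjusted p = 0.00165). Aph + ART558 gave 45.7%, 47.3% and 50.7% for chr6, 38.0%, 41.9% and 39.7% for chr8, and 41.7%, 38.7% and 41.6% for chr12. This was 22.8 points above Aph (42.8% against 20.02%, exact p = 0.0025, the smallest it can give, adjusted p = 0.00648), and the differences of the 3 baits lay between 22.3 and 23.7. ART558 alone gave 43.0%, 42.6% and 42.6% for chr6, 30.4% and 29.7% for chr8, and 32.0%, 30.7% and 31.0% for chr12, above DMSO on each bait (34.7% against 28.9%, difference 5.75, exact p = 0.002, adjusted p = 0.00648). Insertions of 10 bp or more made up 5.29% with Aph and 17% with both drugs (difference 11.7, exact p = 0.0025), and 8.07% with DMSO and 11.1% with ART558 (exact p = 0.002).

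Same-strand insertions also fell with Aph, and, unlike those on the opposite strand, with ART558 alone. They were found in 25.6% of same-strand joints with DMSO and 15.8% with ART558 (difference -9.83, exact p = 0.008, adjusted p = 0.0164), in 16.6% with Aph against 26.8% with DMSO (exact p = 0.000159), and in 19.3% with Aph + ART558 against 16.1% with Aph (difference 3.18, exact p = 0.285). Over both strands insertions rose by 4.15 points with ART558 (28.2% to 32.4%, exact p = 0.006, adjusted p = 0.0129) and by 20.6 points when it was added to Aph (19.3% to 39.9%, exact p = 0.0025), and fell by 9.18 with Aph (28.9% to 19.8%, exact p = 0.000159). In Xrcc4/p53-deficient cells the comparisons that involve ART558 cross sequencing runs, and this holds for every measure given here. For Aph + ART558 against Aph only the chr6 libraries shared a run, and for ART558 against DMSO only those of chr6 and of chr12. On the other baits drug and run cannot be told apart. Within 1 bait and 1 run, the differences for insertions were 3.21 for ART558 against DMSO (exact p = 0.12) and 21.1 for Aph + ART558 against Aph (exact p = 0.5, the smallest that stratum allows).

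In Xrcc4/p53-deficient cells many inserts of inverted joints were mirrored copies of the bait. Of inserts of 8 bp or more, those were counted that match, exactly and as reverse complement, the bait chromosome within 200 bp of the cut. With DMSO 1823 of 4661 matched (39.1%), with 25.3% to 48.9% in the 17 libraries that had 20 such inserts. With Aph 344 of 988 matched (34.8%, 25.5% to 39.1% in 9 libraries). With ART558 23 of 1080 matched (2.13%, 0 to 5.77% in 8 libraries), and with Aph + ART558 27 of 2625 (1.03%, 0 to 4.26% in 9 libraries). The libraries with and without ART558 did not overlap. Against the windows of the other baits 0.0858% to 0.229% matched. This measure was chosen after its values were seen and is given with no test. For inserts of 12 bp or more the percentages were 36.1%, 31.9%, 2.09% and 0.727% in the order DMSO, Aph, ART558 and both. Matches in the direct orientation made up 2.66%, 2.83%, 4.54% and 3.62% in that order. In Xrcc4/p53-deficient cells the other classes of junction also held smaller shares of mirrored inserts with ART558, which were not tested either. On the same strand of the bait side they made up 13.3% with DMSO, 16.7% with Aph, 1.03% with ART558 (1 of 97) and 1.27% with both (2 of 157). Among same-strand inserts past the break they made up 28.0%, 21.9%, 1.90% and 1.67%, and among inserts on other chromosomes 4.41%, 2.995%, 0.994% and 0.635%, in the order DMSO, Aph, ART558 and both.

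The copied bases often lay beside the point where the bait ended. In 51.7% of mirrored inserts of inverted joints the end of the copied stretch farther from the cut lay within 5 bp of the bait's last base. In 97.2% the stretch lay on the bait side of the cut, and in 99.7% it lay nearer the cut than the prey did. Copies were sought only within 200 bp of the cut and most prey lay farther out, so the 99.7% was largely set by that search. The commonest ones of the chr6, chr12 and chr14 baits are shown, each followed by the bait bases that it mirrors, both in the direction of the read and with no bases in capitals. The bait ended at r -21, the base that the insert's last base mirrors, in 34 of 38 junctions with the first chr6 insert. It ended at r -15 in 15 of 20 with the second, at r -31 in 7 of 7 with the chr12 insert, and with the chr14 insert most often at r -7, inside the copied stretch (5 of 12).
chr6 insert: ccctctact
chr6 bait bases at r -21 to -13, chr6:70950121-70950129: agtagaggg
chr6 second insert: catttccaacc
chr6 bait bases at r -14 to -4, chr6:70950112-70950122: ggttggaaatg
chr12 insert: gtgagcaatgtga
chr12 bait bases at r -29 to -17, chr12:12994025-12994037: tcacattgctcac
chr14 insert: ctataact
chr14 bait bases at r -11 to -4, chr14:83268835-83268842: agttatag
The first chr6 insert stood in 38 junctions of 10 of 23 libraries at 33 prey positions, and the second in 20 junctions of 10 libraries at 17 positions. The chr12 insert stood in 7 junctions of 4 of 10 libraries, and the chr14 insert in 12 junctions of 7 of 15. Over all libraries 1175 of 8036 distinct inserts of inverted joints were mirrored copies.

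**Figure D4:**
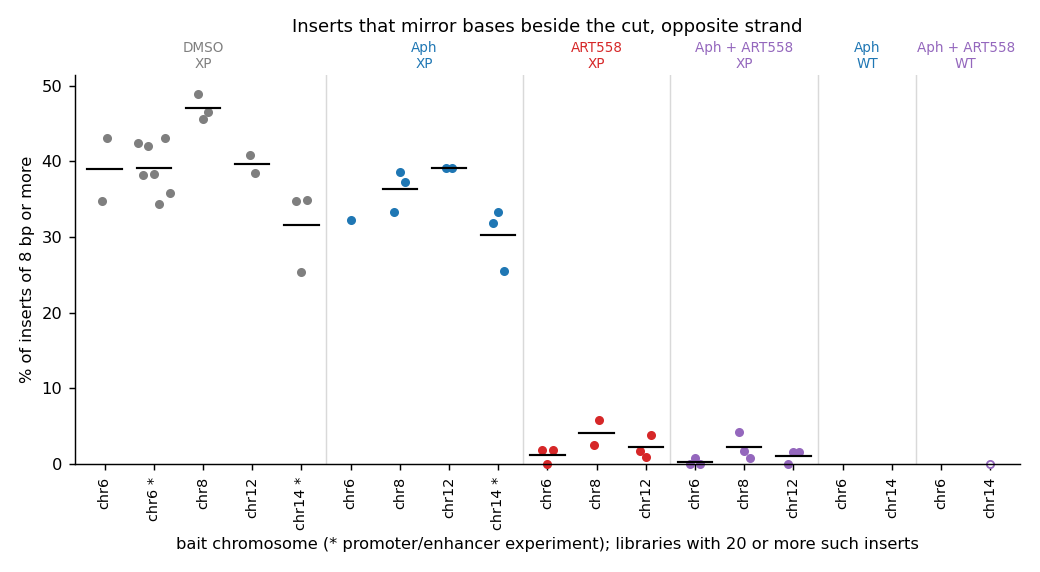
Percent of inserts of 8 bp or more in opposite-strand joints that match the bait chromosome within 200 bp of the cut as reverse complement, by drug and bait chromosome. Each point is 1 library with at least 20 such inserts, filled for Xrcc4/p53-deficient (XP) and open for wild-type (WT) cells, bars are group means and an asterisk marks the promoter/enhancer experiment. Libraries with DMSO or Aph lie between 25.3% and 48.9%, and those with ART558 at 5.77% or below.

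The bait end lost more bases with either drug than with DMSO, and more with both than with Aph alone. On the opposite strand the mean loss was 12.6 and 14.2 bp with DMSO for chr6, 11.6, 12.2 and 11.4 bp for chr8, and 18.4 and 18.0 bp for chr12. With ART558 it was 28.9, 26.5 and 29.3 bp, 32.2 and 33.6 bp, and 35.3, 33.4 and 33.0 bp for the same baits, and no library overlapped (31.7 against 14.5 bp, difference 17.2, exact p = 0.002, adjusted p = 0.00648). With Aph it was 16.7 bp, 16.3, 15.6 and 16.5 bp, and 19.95 and 21.3 bp, and with Aph + ART558 22.9, 25.6 and 23.3 bp, 28.9, 32.3 and 33.3 bp, and 29.3, 29.7 and 29.4 bp (28.3 against 17.8 bp, difference 10.5, exact p = 0.0025). The losses with both drugs lay below those with ART558 alone in every library of chr6 and chr12 and overlapped them for chr8, which was not tested. Same-strand joints lost 38.4 bp with ART558 and 14.8 bp with DMSO (difference 23.6, exact p = 0.001), and 36.2 bp with both drugs against 22.9 bp with Aph (difference 13.3, exact p = 0.0025). With Aph against DMSO the losses were 19.97 and 16.7 bp on the opposite strand (exact p = 0.00238, adjusted p = 0.00648) and 27.9 and 19.2 bp on the same strand (exact p = 0.000159).

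In wild-type cells the members were few, and in every chr14 library most of them ran in the direction of the bait. They made up 1.96%, 3.03% and 2.20% of the Aph libraries for chr6 and 9.77%, 8.79%, 10.7% and 9.23% for chr14. With Aph + ART558 they made up 3.67%, 4.31%, 4.56% and 2.91% for chr6 and 11.8%, 11.4%, 11.3% and 11.6% for chr14. All chr14 libraries with ART558 lay above all those without, and the difference over both baits was 1.69 points (7.69% against 6.01%, 8 against 7 libraries, exact p = 0.00163, adjusted p = 0.00648). As a percent of junctions within 1 Mb of the cut the difference was 3.66 (exact p = 0.115). Inverted joints made up 34.9%, 26.8%, 27.1% and 24.1% of the members with Aph for chr14 and 37.8%, 41.0%, 37.3% and 41.5% with both drugs, and for chr6, 12.9%, 64.3% and 62.8% with Aph and 33.3%, 72.2%, 25% and 50% with both. The difference over both baits was 4.83 points (exact p = 0.626), and its direction was not stable. It was -3.61 without Aph chr6 replicate 1 and -2.87 beyond 200 bp, and 13.7 (exact p = 0.0286, the smallest it can give) with each position counted once, which left only the chr14 libraries. Direct joints (33.2% with both drugs, 33.7% with Aph, exact p = 0.909) and insertions (26.7% and 26.0%, exact p = 0.818) gave no difference that passed the test. For insertions the sign turned beyond 200 bp (-9.50), with each position counted once (-0.0957) and with libraries of 1000 or more junctions (-0.949). On the opposite strand of chr14 microhomology of 2 to 4 bp was 47.8%, 47.9%, 54.5% and 56.1% with Aph and 43.0%, 44.3%, 47.4% and 35.7% with both (difference -8.99, exact p = 0.0286, the smallest it can give, adjusted p = 0.0496).

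Set against Xrcc4/p53-deficient cells of the same drug and bait, wild-type libraries held fewer members (5.29% against 18.9%, difference -13.6, 11 against 7 libraries, exact p = 0.000408, adjusted p = 0.00283). Inverted joints took 1.88% and 15.8% of the libraries (exact p = 0.000408), and same-strand joints 3.41% and 3.08% (difference 0.326, exact p = 0.611). Inverted joints were 40.0% of the members against 83.4% (exact p = 0.000408). Direct joints were 33.6% against 12.6% over both strands (difference 21.0, exact p = 0.000408), and on the same strand 49.8% against 24.2% (exact p = 0.00286, adjusted p = 0.00700), or 21.9 points with each position counted once (exact p = 0.0571). Insertions were 29.0% and 29.97% (exact p = 0.578), and without the only Xrcc4/p53-deficient Aph library of chr6 the difference was -5.42. Its direction was not stable, since it was 5.84 beyond 200 bp and 0.104 with libraries of 1000 or more junctions. Other chromosomes took 60.7% to 82.7% of the wild-type libraries. Inserts of 8 bp or more in inverted joints numbered 127 in wild-type cells, of which 9 were mirrored copies (7.09%) and 9 matched in the direct orientation.

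Same-strand members in wild-type cells gathered at a few lengths of the doubled stretch, which is the distance from the prey's start to the bait's end. With each joint counted once, 34.0% of same-strand joints with Aph and 33.9% with Aph + ART558 spanned from 330 to under 430 bp for the chr14 bait (library ranges 30.2% to 39.4% and 32.6% to 35.7%). With the chr6 bait only 3 libraries with both drugs had enough joints, 36, 34 and 24 of them, and gave 55.6%, 41.2% and 25%. In Xrcc4/p53-deficient cells this window held 5.20% with DMSO (0 to 9.44%), 10.1% with Aph (6.47% to 11.98%), 17.4% with ART558 (9.52% to 27.4%) and 18.7% with both (16.8% to 22.2%). With Aph and the chr14 bait alone it held 10.97% in these cells (10.6% to 11.3%). The bins of 25 bp that follow pool the baits, and no chr14 library of Xrcc4/p53-deficient cells had ART558. In bins of 25 bp, wild-type joints peaked at 350 to 374 bp with 14.96%, and a smaller peak lay at 175 to 199 bp with 4.69%. Joints of Xrcc4/p53-deficient cells with ART558 peaked at 350 to 374 bp with 5.75%, at 200 to 224 bp with 4.39% and at 575 to 599 bp with 2.16%. Without ART558 the 200 to 224 bp bin held 2.58% and the 350 to 374 bp bin 1.75%. The window was chosen after the values were seen, and no test was made.

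**Figure D5:**
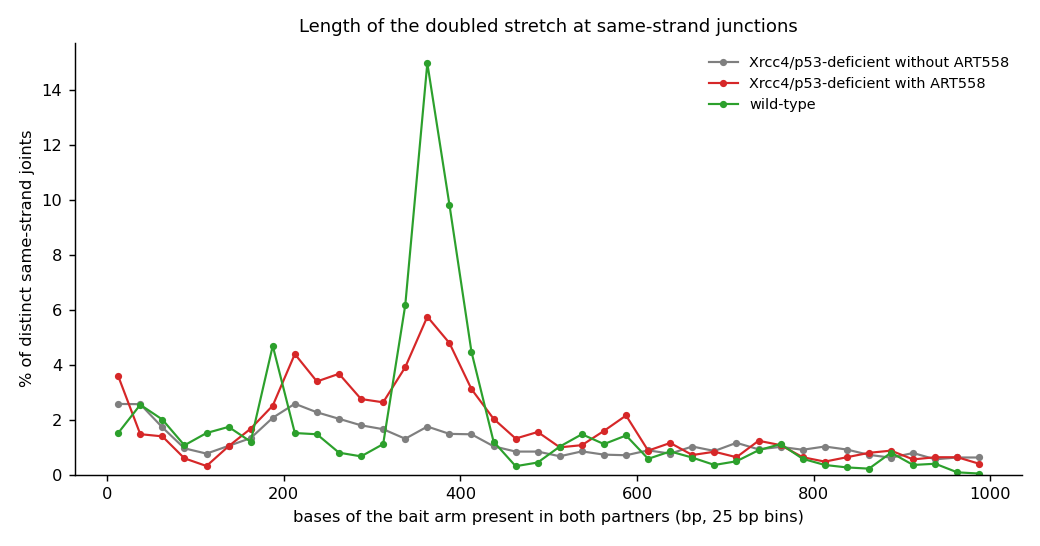
Length of the doubled stretch of same-strand joints (x axis, bp, bins of 25 bp) against the percent of distinct joints (y axis), for Xrcc4/p53-deficient (XP) cells without ART558 (13516 joints), with ART558 (2506) and for wild-type cells (2240). Both the wild-type line and the line with ART558 peak at 350 to 374 bp, and the line without ART558 holds 1.75% there. Baits are pooled in unlike parts, since most wild-type joints come from the chr14 bait and the line with ART558 holds no chr14 library.

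Some positions recurred. In wild-type cells with the chr14 bait the prey began at r -459 in 116 same-strand junctions, found in all 8 libraries, with a median bait loss of 81 bp. In those with the chr6 bait, 28 opposite-strand junctions began at r -133 in all 7 libraries, the base next to the inner end of the biotinylated primer (r -158 to -134). For chr12, the commonest same-strand positions were r -230 (179 junctions) and r -229 (148), in 10 of 10 libraries, with a median prey length of 27 and 26 bases. These lie at the start of the biotinylated primer (r -229 to -205) and 1 bp before it. With the chr14 bait, whose biotinylated primer spans r -199 to -173, same-strand prey began at r -199 in 33 junctions of Xrcc4/p53-deficient cells (7 of 7 libraries) and in 94 of wild-type cells (8 of 8), and opposite-strand prey at r -173 in 30 of wild-type cells (8 of 8). Same-strand junctions within 2 bp of the primer's start made up 12.4% to 15.8% of same-strand members for chr12 with DMSO, 6.67% to 6.82% with Aph and 3.83% to 5.26% with ART558, and 2.89% to 6.88% for chr14 in wild-type cells. Leaving these junctions out ended 1 call, inverted joints with Aph + ART558 against Aph (4.18, exact p = 0.0575). Junctions at the primer's inner end were not left out.

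Bait-side joints also differed from joints past the break in the same libraries. With ART558, direct joints on the same strand were 41.6% of bait-side and 13.9% of past-break joints, higher in 9 of 9 libraries (two-sided exact sign-flip permutation, p = 0.00391, adjusted p = 0.0153). Insertions were 15.8% and 38.7%, lower in 9 of 9. Aph + ART558 gave 37.3% and 15.1% for direct joints and 19.3% and 42.2% for insertions, also in 9 of 9. With DMSO the order of direct joints was turned, at 9.97% and 14.6%, lower in 16 of 17 libraries (permutation p = 0.00052, adjusted p = 0.00815), while on the opposite strand insertions were 29.4% on the bait side and 23.3% past the break, higher in 14 of 18 (permutation p = 0.00044). Joints beyond 10 kb were commoner on the bait side of the same strand, 12% against 1.57% with DMSO, in 18 of 18 libraries (permutation p = 4e-05, adjusted p = 0.00188). On the opposite strand they were also commoner on the bait side with DMSO (5.22% against 3.42%, 14 of 18 libraries, permutation p = 0.00098) and with Aph (18.5% against 10.6%, 9 of 9, exact p = 0.00391). With Aph + ART558 they were rarer there, 11.04% against 23.4%, lower in 7 of 7 libraries (exact p = 0.0156, adjusted p = 0.0408). This rests on few joints, since these libraries held only 277 opposite-strand junctions past the break in all, against 13102 on the bait side. The library values past the break ranged from 14.3% to 36.7%.

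The chr8 and chr14 baits were set side by side within 1 sequencing run. With DMSO the share was 13.2% for chr8 and 11.5% for chr14 (difference 1.70, 3 against 4 libraries, exact p = 0.286), and inverted joints were 77.8% and 73.5% (exact p = 0.0571, the smallest it can give). Without chr14 replicate 2, the library of 79 members, the differences were 0.190 and 1.73 points, from 4.30 for inverted joints with it. Protein-coding genes in the windows held small parts of the members. Foxi3, which encodes a forkhead transcription factor (chr6:70956531-70961066), held 1643 of 48179 members of chr6 (3.41%), with library means in Xrcc4/p53-deficient cells of 2.66% for DMSO (2.94% in the 7 libraries of the promoter/enhancer experiment), 5.55% for the single Aph library, 3.19% for ART558 and 6.96% for both. In wild-type cells it held none in the 3 Aph libraries and 1.79% to 18.5% in the 4 with both drugs. Galntl6, which encodes a glycosyltransferase-like protein (chr8:57774052-58912640), held 170 of 15605 members of chr8 (1.09%). Its share was 0.448% ± 0.0531 (SD, n = 3) with DMSO, 1.90% ± 0.0386 (n = 3) with Aph, 0.579% ± 0.630 (n = 3) with ART558 and 0.688% ± 0.0598 (n = 3) with both. Mycn, which encodes the transcription factor N-Myc, held 59 and Fam49a 74 of 22275 members of chr12. On chr6, Smyd1, which encodes a muscle histone methyltransferase, held 174 members at 263832 bp from the cut, and Reep1, a shaper of the endoplasmic reticulum, 76 at 757453 bp.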

How the data were processed

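LAM-HTGTS libraries were processed by the authors with the HTGTS pipeline, which demultiplexed and trimmed the reads, aligned them with Bowtie2 to GRCm38/mm10 and filtered the junctions. Tool versions were not given in the sources used here. The deposited tables list 1 junction per line, with its coordinates and where bait and prey lie within the read, and are not normalized. All 60 LAM-HTGTS libraries were used, with 593366 complete junctions in all, of which 0 to 4.48% per library lay outside chromosomes 1 to 19, X and Y and were left out. The table of ART558 chr6 replicate 1 ends within a line, and its complete lines were used. Repeat junctions were kept, and counts cover counting error only, since reads carried no molecular identifiers.

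Cuts were placed 3 bases from the PAM of each guide, found in the genome with samtools 1.23.1. Microhomology was the overlap of bait and prey in the read, from 0 to 10 bp, and a negative overlap was an insertion (longest 30 bp). Bait loss was the number of bases between the bait's end and the cut. Values per library were compared by permuting libraries within baits (exact, two-sided), with at least 20 junctions in a denominator, a threshold of 0.05 and Benjamini-Hochberg adjustment over 125 tests, of which 81 had p under 0.05 and 73 an adjusted p under 0.05. Bait side and past-break joints were compared within libraries by sign-flip tests (47, adjusted together, 100000 draws for 10 or more libraries). In Xrcc4/p53-deficient cells p-values measure only the spread between repeats of 1 line, which may be technical. Replicate numbers did not pair the samples by the correlation of their deviations. The tests were tested on simulated data. The members, gene list and measures were chosen with earlier results of these data known. Only protein-coding genes were considered, and named genes were the nearest and the 3 with the most members in each window. Python 3.11.15, NumPy 2.4.6, pandas 2.3.3 and Matplotlib 3.10.9 were used. The other assays of the series were not used here. The sequences at the chr8 bait are not reported here.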

Additional observations from a re-analysis of the deposited data

Results flagged for a closer look

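Over the groups of 4 to 10 libraries, 44 combinations of a group and a measure were examined for a library far from the others, and 6 of them, in 2 groups, held one, where chance gives about 1 in 20. Replicate 2 of DMSO chr14 in Xrcc4/p53-deficient cells, with 1139 junctions and 79 bait-side members, accounted for 4 of them. Its share was 6.94% (others 12.7% to 13.2%), its inverted joints 65.8% of members (others 75.6% to 76.4%), insertions on the same strand 44.4% (others 24.1% to 27.6%) and mean bait loss on the opposite strand 29.1 bp (others 21.4 to 22.2 bp). In wild-type cells with Aph and the chr14 bait, replicate 2 had insertions in 22.5% of same-strand members (others 16.4% to 17.1%), and replicate 4 a mean bait loss of 43.7 bp on the opposite strand (others 37.2 to 38.2 bp).

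For the chr6 bait the effect of adding ART558 to Aph had opposite signs in both genotypes in 2 of 9 measures compared, and the difference was not tested, since each Aph group had 1 library with enough junctions. Insertions on the opposite strand rose by 22.3 points in Xrcc4/p53-deficient cells and changed by -20.6 points in wild-type cells. Mean bait loss on the same strand changed by 6.64 bp and by -15.8 bp.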

How the results depend on the processing

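Of 135 planned or added alternatives to the main comparisons, 108 kept direction and side of the threshold, 13 lost the call, 4 gained one and 10 turned the sign. Junctions on other chromosomes as denominator turned the share of ART558 against DMSO (-60.3), Aph + ART558 against Aph (-26.2) and Aph against DMSO (-39.9). Junctions within 1 Mb as denominator gave 17.4 for ART558 (exact p = 0.001) and 3.66 for wild-type cells (exact p = 0.115). Beyond 200 bp only, the share gave 4.52 for ART558 (exact p = 0.029), inverted joints -2.87 in wild-type cells, direct joints -1.08 for Aph, and insertions -9.50 for wild-type Aph + ART558 and 5.84 between genotypes. Each position counted once gave 1.55 for the share of Aph + ART558, and in wild-type cells 13.7 for inverted joints and -0.0957 for insertions. Libraries of 1000 or more junctions gave 3.11 for the share of Aph + ART558, 9.10 for inverted joints of ART558, and insertions of -0.949 in wild-type cells and 0.104 between genotypes. Within 1 bait and 1 run, Aph + ART558 gave 3.57 for the share, 6.75 for inverted joints, 8.52 for direct joints and 21.1 for insertions, and ART558 3.21 for insertions, with 1 to 2 strata and few orderings. Direct joints of Aph gave -0.0380 with insertions in the denominator and -0.988 with the promoter/enhancer libraries of chr6. Leaving out junctions at the biotinylated primer, chosen after seeing the data, gave 4.18 for inverted joints of Aph + ART558.

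Samples shared only their replicate number. The replicate block gave 3.89 for inverted joints of Aph + ART558 (exact p = 0.156) and 1.04 for direct joints in wild-type cells, and changed no other call among the main results. It also gave 2.73 for opposite-strand microhomology of 5 to 10 bp (exact p = 0.0625). Without 1 library the share ranged from 2.80 to 5.91 (ART558) and 2.86 to 4.39 (Aph + ART558), inverted joints from -1.21 to 9.10, 3.13 to 5.46 and, in wild-type cells, -3.61 to 9.23, direct joints in wild-type cells from -4.06 to 3.14, and insertions from -0.949 to 3.85 in wild-type cells and -5.42 to 0.104 between genotypes. The cause of these changes was not tested. Depth limits the wild-type chr6 libraries, where 28 to 84 members leave several percentages without a value.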
